A study of Mus musculus with 20 samples.

Results

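Chemokine receptors steer macrophages and the monocytes they come from, and 5 of them were followed here through cultured mouse bone marrow-derived macrophages (BMDM): Ccr1, Ccr2, Cx3cr1, Cxcr4 and Ccrl2. They were picked by gene symbol, and all 5 are listed among the 14456 genes of the normalized count table. BMDM are macrophages grown in culture from marrow, here of male C57BL/6J mice. In one experiment BMDM were kept in 25 mM glucose (high glucose) or in 5.5 mM glucose with 19.5 mM mannitol, a sugar alcohol that evens out the osmotic load (normal glucose). In the other, naive BMDM received PBS as vehicle, exosomes of normal-glucose BMDM (BMDM-NG-exo) or exosomes of high-glucose BMDM (BMDM-HG-exo). Exosomes are small vesicles that cells release and other cells take up. Each of the 5 groups has 4 libraries of total RNA. The titles of the exosome libraries carry dates, and each exosome group has 1 library from each of the same 4 dates. The cells are cultured and without a lesion or blood flow around them, and the labels do not say whether libraries of a group came from separate animals, so p-values measure the spread between these samples only.

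Chemokine receptors are proteins that cross the cell membrane repeatedly, bind small secreted proteins called chemokines and, through G proteins inside the cell, turn on movement towards the source. CCR2 binds CCL2 and brings inflammatory monocytes out of the marrow and into tissue, while CX3CR1 binds the membrane-anchored chemokine fractalkine (CX3CL1) and marks patrolling monocytes and many tissue macrophages. CCR1 binds several inflammatory CC chemokines. CXCR4 binds CXCL12 and holds blood cells in the marrow. CCRL2 is an atypical receptor that presents the chemoattractant chemerin and is not known to signal as the others do.

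A short stretch of coding sequence separates the signalling receptors from the atypical one. Most chemokine receptors carry the DRY motif (aspartate, arginine, tyrosine) at the inner end of the third membrane-spanning helix, where the G protein is engaged. The 27 coding bases around this position, aligned to Ccr2, are shown 5′ to 3′ on the coding strand from GENCODE M21 transcripts (GRCm38), with the 3 codons of the motif in capitals:
Ccr1: ttgacgattGACAGATACctggccatt
Ccr2: ctgacaattGATAGGTACttggctatt
Cx3cr1: atcagcatcGACCGGTACcttgccatc
Cxcr4: atcagcctgGACCGGTACctcgctatt
Ccrl2: ctccttgtgCAAGGATACagggtgttt
The capitals encode the motif in Ccr1 (chr9:123964087-123964113), Ccr2 (chr9:124106123-124106149), Cx3cr1 (chr9:120051939-120051965) and Cxcr4 (chr1:128589503-128589529). They do not in Ccrl2 (chr9:111056018-111056044).

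All members are protein-coding, and 4 of the 5 lie on chromosome 9. On GRCm38, Ccr1 is at chr9:123962124-123968692 on the minus strand, Ccr2 at chr9:124101950-124113557 on the plus strand, Cx3cr1 at chr9:119901616-120069879 on the minus strand and Ccrl2 at chr9:111054486-111057519 on the minus strand. Cxcr4 is at chr1:128588199-128592293 on the minus strand. Of the 6758 different 50-base stretches in Ccr2 transcripts, 129, or 1.91%, also occur in a transcript of another gene. The share was 0.269% for Cx3cr1 and 0 for Ccr1, Cxcr4 and Ccrl2, so the counts of the members rest almost wholly on sequence that no other annotated gene holds.

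The libraries held between 34016445 and 56310712 reads in listed genes, with a median of 43311931. Values are normalized counts, which are reads per gene divided by 1 size factor per library. The cells carried macrophage transcripts in every group. Of 16 macrophage markers 14 were listed, with a summed normalized count between 684979 and 929428 per library, while the 7 listed of 12 neutrophil markers summed to 5280 to 7188. Of the defining B cell markers only 1 of 8 was listed, of the T and NK cell markers 1 of 12, of the dendritic cell markers 2 of 11, of the erythroid and megakaryocyte markers 1 of 11 and of the mast cell and basophil markers none of 8. Of 10 stromal and endothelial markers 6 were listed, with sums of 431 to 724.

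The 5 receptors covered a wide range of levels. Per kilobase of exon and averaged over the 20 libraries, Cxcr4 stood highest at 3141 normalized counts per kb, followed by Cx3cr1 at 1310, Ccr2 at 502, Ccrl2 at 102 and Ccr1 at 26.7. Ccr1 therefore rests on few reads, between 30 and 113 per library, and its error is the widest of the members. On the same scale Cxcr3, a receptor of interferon-induced chemokines, stood at 80.6 and Ccr3, the eotaxin receptor, at 25.8.

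**Figure D1:**
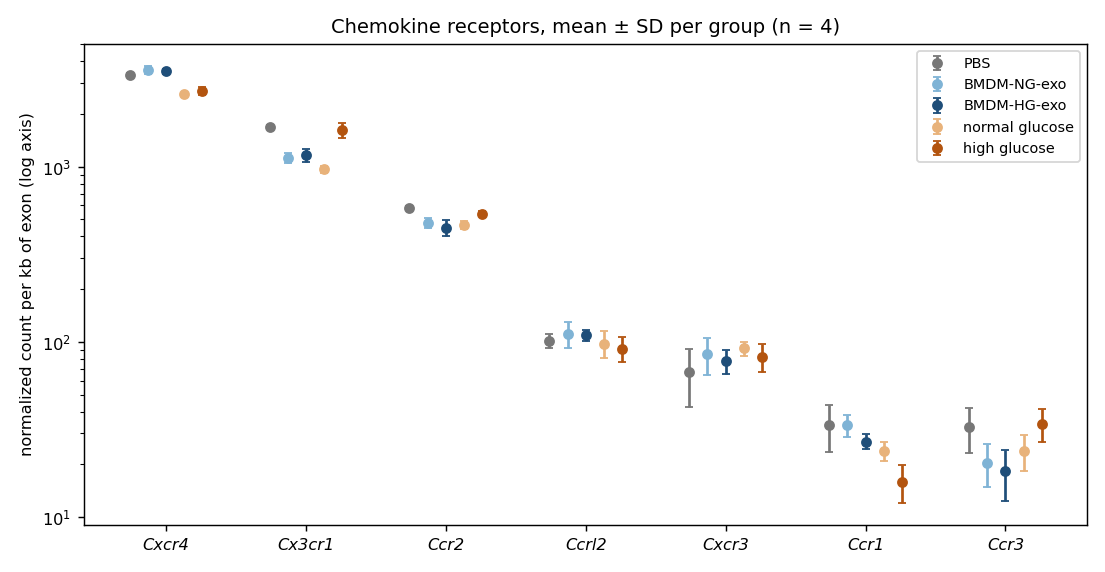
Normalized count per kb of exon on a log axis for the 5 members, Cxcr3 and Ccr3, with the mean and SD of 4 libraries in each of the 5 groups. Cxcr4 averaged 3141 per kb over the 20 libraries and Ccr3, the lowest, 25.8.

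Cx3cr1 had the clearest pattern. In PBS its normalized count was 7525, 7633, 7540 and 7781 in the libraries numbered 1 to 4. With BMDM-NG-exo it was 5336, 4599, 4925 and 5323, and with BMDM-HG-exo it was 5219, 4660, 5237 and 5807. All 8 exosome-treated libraries thus lay below all 4 PBS libraries, and the 2 exosome groups overlapped. In normal glucose, libraries 1, 3, 5 and 6 held 4596, 4390, 4114 and 4334, against 6286, 7213, 7485 and 8038 in high-glucose libraries 1, 2, 4 and 6. Every high-glucose library lay above every normal-glucose library. By group mean the order was PBS (7620 ± 118, SD, n = 4), high glucose (7256 ± 732), BMDM-HG-exo (5231 ± 469), BMDM-NG-exo (5046 ± 353) and normal glucose (4359 ± 198). PBS and high glucose overlapped, as did the exosome groups. The lowest BMDM-NG-exo library, at 4599, and the highest normal-glucose library, at 4596, were almost level. The 2 experiments are separate cultures, so levels across them were not tested.

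Ccr2 moved the same way as Cx3cr1, with smaller steps, in high glucose and in both exosome groups relative to PBS. In PBS it was 4037, 3936, 3810 and 3872. It was 3048, 3532, 3101 and 3241 with BMDM-NG-exo, and 2680, 2960, 3072 and 3418 with BMDM-HG-exo. Again no exosome-treated library reached the lowest PBS library. Normal-glucose libraries held 2995, 3286, 3008 and 3244, and high-glucose libraries 3644, 3799, 3529 and 3588, with no overlap. The means were 3914 ± 97.0 in PBS, 3640 ± 116 in high glucose, 3230 ± 217 with BMDM-NG-exo, 3133 ± 153 in normal glucose and 3032 ± 305 with BMDM-HG-exo (SD, n = 4 each). The last 3 of these groups overlapped each other, and the highest BMDM-NG-exo library, at 3532, just passed the lowest high-glucose library, at 3529.

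The Cxcr4 groups overlapped within each experiment. It was 6131, 6051, 6156 and 5811 in PBS, 6662, 6744, 6414 and 5978 with BMDM-NG-exo, and 6556, 6492, 6130 and 6122 with BMDM-HG-exo, and these 3 groups overlapped. In normal glucose it was 4683, 4550, 4714 and 4775, and in high glucose 4587, 4771, 5090 and 5161, which also overlap. All 12 libraries of the exosome experiment lay above all 8 of the glucose experiment, a gap between separate cultures that was not tested.

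Ccr1, the least abundant member, averaged 94.8 ± 28.6 in PBS, 94.9 ± 13.4 with BMDM-NG-exo, 76.4 ± 7.46 with BMDM-HG-exo, 67.3 ± 8.47 in normal glucose and 45.0 ± 11.0 in high glucose (SD, n = 4 each). Its PBS libraries ranged from 57.0 to 125 and overlapped both exosome groups. In the glucose experiment the groups did not overlap, with 56.5 as the lowest normal-glucose value and 52.2 as the highest high-glucose value. Ccrl2 had means of 264 ± 25.4 in PBS, 288 ± 47.3 with BMDM-NG-exo, 283 ± 20.8 with BMDM-HG-exo, 254 ± 43.6 in normal glucose and 237 ± 38.2 in high glucose, and all 5 groups overlapped.

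**Figure D2:**
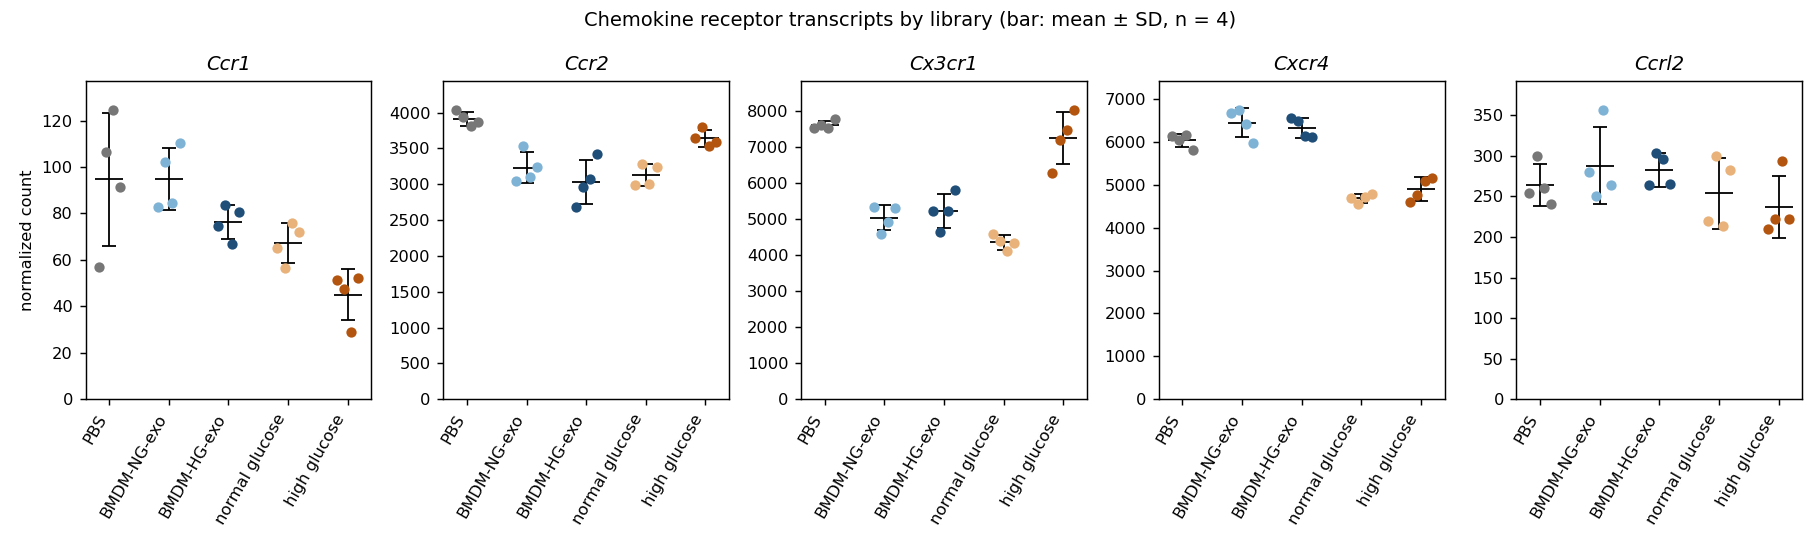
Normalized count of each receptor, 1 point per library, in the 5 groups, with the mean and SD of 4 libraries and axes from 0. Cx3cr1 lies between 7525 and 7781 in PBS and between 4599 and 5807 in the 8 exosome-treated libraries, and between 6286 and 8038 in high glucose against 4114 to 4596 in normal glucose.

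The first comparison asked how BMDM in high glucose differed from BMDM in normal glucose. Only the normal-glucose medium held mannitol, so an effect of mannitol cannot be told apart from one of glucose. Cx3cr1 rose by 0.73 on the log2 scale (SE 0.0510, 1.66-fold, adjusted p = 3.97e-13) and Ccr2 by 0.22 (SE 0.0466, 1.16-fold, adjusted p = 0.00110). Fold changes are on the scale of log2(normalized count + 1) and were tested with limma (p adjusted by Benjamini-Hochberg over every gene fitted), with a gene called at an adjusted p below 0.05. Cx3cr1 was number 13 of 14425 genes by p. Of the genes tested 13.3% were called, 7.74% as higher, and the 2 members called are read against that. The groups did not overlap for 3 members, against 16.3% of all genes. The third of these was Ccr1, with a log2 difference of -0.60 (SE 0.279) that did not pass (adjusted p = 0.167) and a 95% interval of -1.16 to -0.03. Cxcr4 differed by 0.07 (adjusted p = 0.366, interval -0.02 to 0.15) and Ccrl2 by -0.10 (adjusted p = 0.740, interval -0.39 to 0.20). On this scale the interval of Cxcr4 holds only small differences, while those of Ccr1 and Ccrl2 are wide.

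The summed count of the macrophage markers was higher in high glucose, while the single markers went both ways. Their sum ranged from 684979 to 759287 in normal glucose and from 860844 to 929428 in high glucose. Log2 changes were above 0 for 6 of the 14 listed markers and below 0 for 8, with a median of -0.06. Of the 14 listed, 5 were called higher, beside 7.74% of all genes, and 4 lower, beside 5.53%. Lyz2 (log2 change 0.42) and Csf1r, the M-CSF receptor (0.35), were among the first, and Mrc1 (-0.47) and Mertk (-0.40) among the second. Set against 10000 marker counts, Cx3cr1 was 60.3 ± 4.11 in normal and 79.9 ± 6.36 in high glucose, still with no overlap (highest 64.1, lowest 73.0). Ccr2 on this scale was 43.4 ± 3.14 in normal and 40.2 ± 1.91 in high glucose. Its ranges were 41.3 to 48.0 and 38.0 to 42.3, so its rise was not seen relative to the marker sum. That sum weighs each marker by its count, and it rose although 8 of the 14 markers were below 0. The ratio is therefore no correction for macrophage content. Cxcr4, whose groups overlapped as normalized counts, was 64.7 ± 1.45 in normal and 54.1 ± 2.17 in high glucose relative to the markers, and every high-glucose library was below every normal-glucose library (highest 56.7, lowest 62.9). Ccr1 was 0.928 ± 0.0897 and 0.499 ± 0.131 without overlap, and Ccrl2 was 3.52 ± 0.670 and 2.61 ± 0.367 with overlap. Each of these ratios also carries the difference in the marker sum itself, so it does not show the receptor alone. The marker sums of the groups did not overlap, so a gene with little change of its own can separate on this scale. How many of all genes do so was not counted, and the separation of Cxcr4 is not read as its own change. The part of the markers in these results was otherwise not tested. In bulk RNA, fewer cells of a type and less RNA per cell cannot be told apart.

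In high against normal glucose Ccr3, between Ccr1 and Ccr2 on the chromosome, had a log2 difference of 0.52 (SE 0.228, adjusted p = 0.134). Cxcr3 differed by -0.17 (adjusted p = 0.580).

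The second set of comparisons asked what exosomes did to naive BMDM relative to vehicle. Both comparisons below share the PBS libraries, so their values are set side by side and not counted as independent. Here a call also needed a log2 fold change of 0.15 or more in size. With BMDM-NG-exo, Cx3cr1 fell by 0.60 on the log2 scale (SE 0.0503, fold 0.661, adjusted p = 1.21e-09), the smallest p of all 14413 genes tested. With BMDM-HG-exo it fell by 0.55 (SE 0.0503, fold 0.685, adjusted p = 1.37e-09), number 10 by p. Ccr2 fell by 0.28 with BMDM-NG-exo (SE 0.0560, fold 0.824, adjusted p = 0.00152) and by 0.37 with BMDM-HG-exo (SE 0.0560, fold 0.772, adjusted p = 1.51e-05).

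These 2 members were the ones called in each comparison. With BMDM-NG-exo 3.0% of all genes were called, 2.11% as lower, and 8.27% had groups that did not overlap. With BMDM-HG-exo the shares were 4.84%, 3.08% and 10%. No exosome-treated library reached any PBS library for Cx3cr1 or Ccr2, so both genes were necessarily lower than PBS on each of the 4 dates. The dates therefore add only the size of the differences. For BMDM-NG-exo the same-date log2 differences from PBS lay between -0.73 and -0.50 in Cx3cr1 and between -0.41 and -0.16 in Ccr2. For BMDM-HG-exo they lay between -0.71 and -0.42 in Cx3cr1 and between -0.59 and -0.18 in Ccr2.

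The other members did not pass in either comparison. Cxcr4 differed by 0.09 with BMDM-NG-exo (adjusted p = 0.294, interval 0.01 to 0.18) and by 0.07 with BMDM-HG-exo (adjusted p = 0.445, interval -0.02 to 0.15). Ccrl2 differed by 0.12 (adjusted p = 0.793) and 0.10 (adjusted p = 0.781). Ccr1 differed by 0.05 with BMDM-NG-exo (adjusted p = 0.967) and by -0.26 with BMDM-HG-exo (adjusted p = 0.656). The first of these turned to -0.18 without PBS library 1, whose value of 57.0 was the lowest of its group.

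The macrophage marker sum was lower with exosomes as well. Their sum was 850086 to 895512 in PBS, 769831 to 828007 with BMDM-NG-exo and 786031 to 810153 with BMDM-HG-exo. Of the 14 listed markers 5 were called lower with BMDM-NG-exo, beside 2.11% of all genes, and 6 with BMDM-HG-exo, beside 3.08%. Csf1r was lower by 0.22 and 0.26 on the log2 scale. Per 10000 marker counts Cx3cr1 was 87.9 ± 2.60 in PBS, 62.6 ± 3.68 with BMDM-NG-exo and 65.5 ± 5.67 with BMDM-HG-exo, and Ccr2 was 45.1 ± 0.734, 40.1 ± 2.90 and 38.0 ± 3.94. The PBS libraries stayed above all exosome libraries for both genes on this scale. Cxcr4 was 69.6 ± 2.55 in PBS, 80.1 ± 5.05 with BMDM-NG-exo and 79.2 ± 2.54 with BMDM-HG-exo, and its PBS libraries, of at most 72.4, all lay below the exosome libraries, of at least 72.8. Ccr1 and Ccrl2 in PBS overlapped both exosome groups. Here too each ratio carries the difference in the marker sum itself, and the PBS sums lay above all exosome sums. The separation of Cxcr4 on this scale is again not read as its own change. Neutrophil markers summed to 6805 to 7188 in PBS, 6630 to 6811 with BMDM-NG-exo and 5996 to 6572 with BMDM-HG-exo, and their part in the result was not tested.

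Against PBS, Ccr3 had log2 differences of -0.67 with BMDM-NG-exo and -0.84 with BMDM-HG-exo that did not pass (adjusted p = 0.253 and 0.0766), and Cxcr3 had 0.37 and 0.27 (adjusted p = 0.513 and 0.617).

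The third question was whether the glucose of the donor cells mattered, and for these receptors no difference between the exosome groups was detected. BMDM-HG-exo differed from BMDM-NG-exo on the log2 scale by 0.05 for Cx3cr1 (adjusted p = 0.943, 95% interval -0.05 to 0.15), -0.09 for Ccr2 (adjusted p = 0.851, interval -0.21 to 0.02), -0.03 for Cxcr4 (adjusted p = 0.965, interval -0.11 to 0.06), -0.02 for Ccrl2 (adjusted p = 0.995, interval -0.29 to 0.26) and -0.30 for Ccr1 (adjusted p = 0.924, interval -0.80 to 0.19). By limma 0 of the 5 members were called and 0 had an unadjusted p below 0.05, and edgeR and DESeq2 also called 0. Of all genes 0.0139% were called. Ccr1 was lower with BMDM-HG-exo on all 4 dates, with same-date log2 differences from -0.44 to -0.15, while each other member went both ways over the dates. How many of all genes keep 1 direction over the 4 dates was not counted, so no effect on Ccr1 is read from this. On this scale the intervals of Cx3cr1 and Cxcr4 hold only small differences, and that of Ccr1 is wide.

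The study joined PBS and BMDM-NG-exo into 1 control group of 8, and against it no member was called either. Of all genes 0.201% were called. Ccr2 had a log2 difference of -0.23 (SE 0.0693, adjusted p = 0.148) and Cx3cr1 of -0.25 (SE 0.111, adjusted p = 0.424). Both had an unadjusted p below 0.05, of 0.00227 and 0.0331, and edgeR and DESeq2 called 0 members. Without BMDM-NG-exo library 3, Ccr2 passed (adjusted p = 0.0359). The joined control of Cx3cr1 spans 4599 to 7781, and the PBS and BMDM-NG-exo libraries within it do not overlap. Ccr1 differed by -0.28 (adjusted p = 0.681), Cxcr4 by 0.02 (adjusted p = 0.917) and Ccrl2 by 0.04 (adjusted p = 0.939).

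**Figure D3:**
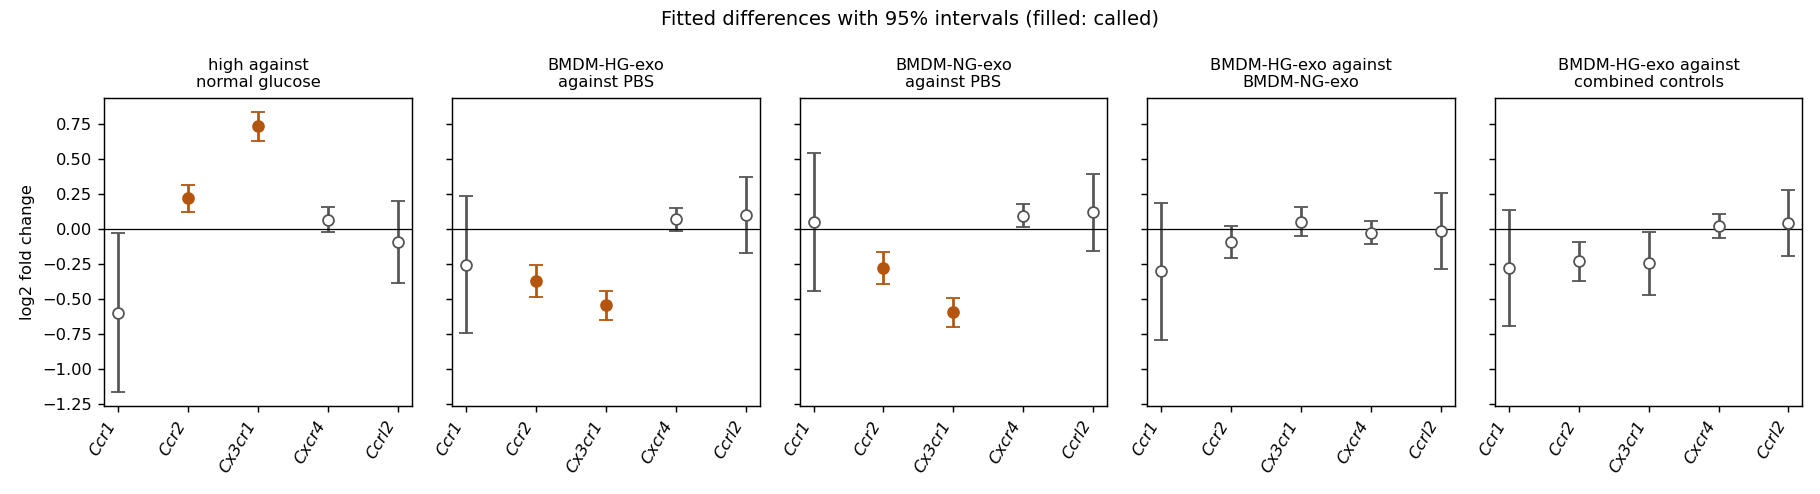
Log2 fold change of each receptor with its 95% interval in 5 comparisons (filled: called). Cx3cr1 and Ccr2 are above 0 in high glucose (0.73 and 0.22), below 0 for both exosome groups against PBS, and near 0 between the exosome groups (0.05 and -0.09).

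The effect of high glucose on the cells and the effect of the donor cells' glucose through exosomes were then compared directly, in 1 fit over 20 libraries, since these 2 pairs of groups share no library. The glucose effect exceeded the exosome effect by 0.68 on the log2 scale for Cx3cr1 (SE 0.0786, adjusted p = 7.99e-08) and by 0.31 for Ccr2 (SE 0.0759, adjusted p = 0.00869). With date and library number as a block, Cx3cr1 was still called and Ccr2 was not, with a difference of 0.31 and an adjusted p of 0.0670. Of all genes 4.74% were called. The differences of Cxcr4 (0.09, adjusted p = 0.459), Ccrl2 (-0.08, adjusted p = 0.895) and Ccr1 (-0.29, adjusted p = 0.748) did not pass.

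Cx3cr1 and Ccr2 differed in the same direction in high glucose and in both exosome groups relative to PBS. Their correlation came from differences between groups. Pearson's r of their log2 values was 0.78 over the 20 libraries after the mean of each experiment was removed, 0.81 over the 12 exosome libraries and 0.86 over the 8 glucose libraries. After the mean of each group was removed it was 0.03 over the 20 libraries, a value that pools groups going different ways. With BMDM-NG-exo the library with the lowest Cx3cr1, at 4599, held the highest Ccr2, at 3532. With BMDM-HG-exo, library 4 held the highest Cx3cr1, at 5807, and also the highest Ccr2, at 3418. The libraries share their size factors, and each r is given as a description. Against Cxcr4, Cx3cr1 had an r of -0.71 over the exosome libraries, 0.69 over the glucose libraries and 0.03 with group means removed.

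**Figure D4:**
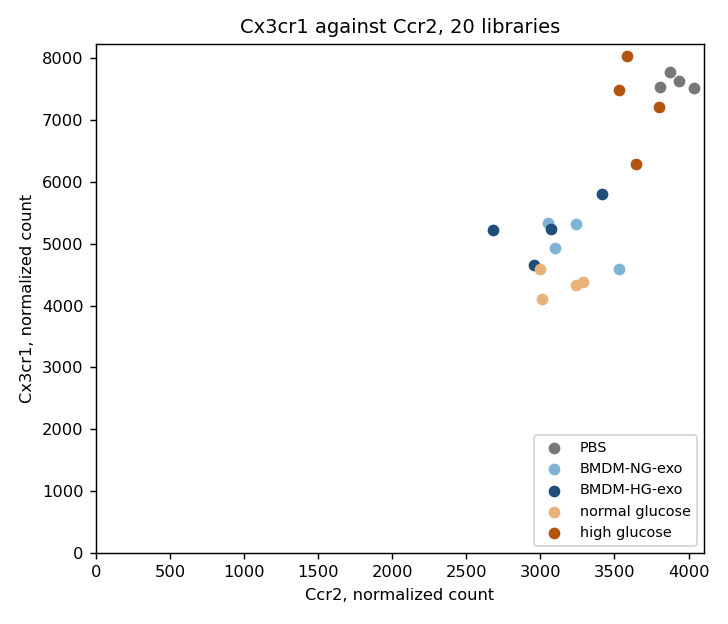
Normalized count of Cx3cr1 against that of Ccr2, 1 point per library, coloured by group, axes from 0. PBS and high-glucose libraries lie at the upper right (Ccr2 of at least 3529, Cx3cr1 of at least 6286), and the other 12 libraries lie lower on Cx3cr1.

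Among 10503 protein-coding genes, those with a pattern most like each receptor over the 20 libraries were found from log2 values with the mean of each experiment removed, so differences between groups enter these r too. For Cx3cr1 they were Rassf4 (r = 0.97), Tnip3 (0.96) and Ptprj (0.95), and for Ccr2 they were Irgm2, C3ar1 and Adgre1 (0.94, 0.94 and 0.93). Adgre1 encodes the macrophage antigen F4/80 and C3ar1 the receptor of complement fragment C3a. Ccr1 was closest to Ppp1r9a (0.88), Dip2c (0.88) and Ddb2 (0.82), Cxcr4 to Cd63 (0.80), Ostf1 (0.78) and Atp13a3 (0.78), and Ccrl2 to Gnpda2 (0.75), Ndc80 (0.73) and Tbc1d32 (0.71).

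Reads from neighbouring genes were also examined. The annotated span of Cx3cr1 overlaps 6 other listed genes, of which Gorasp1, Csrnp1 and Xirp1 lie on its strand, and counting used strand. Only Xirp1 among the 6 was called in any of the comparisons made here, and it was lower with BMDM-NG-exo than in PBS (log2 change -2.27, adjusted p = 0.0420) at a mean of 17.4 normalized counts. It was called in 5 of 12 fits that each left out 1 library, and was lost without PBS library 1, 2 or 3, BMDM-NG-exo library 2, 3 or 4 or BMDM-HG-exo library 4 (log2 -2.39 to -1.90, adjusted p of 0.0503 to 0.157). Csrnp1 differed by 0.28 in high glucose (adjusted p = 0.248), and by -0.16 with BMDM-HG-exo and -0.15 with BMDM-NG-exo against PBS (adjusted p = 0.693 and 0.767). Gorasp1 differed by -0.09, -0.06 and -0.05 in the same order. Wdr48, the most abundant of the 6, lies on the opposite strand. It differed by 0.03 in high glucose (adjusted p = 0.818) and by 0.07 with each exosome group against PBS. Whether reads of these genes enter the Cx3cr1 count was not tested.

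The chemokines that these receptors bind were partly expressed by the same cells. Of 14 ligands 11 were listed. Per kb of exon, Ccl9 (4233), Ccl6 (3509) and Mif (1519) were the most abundant, whereas Ccl2, the main ligand of CCR2, stood at 69.8, Cx3cl1 at 13.3 and Cxcl12 at 1.6. In high glucose 3 of the 11 ligands were called, all higher, beside 7.74% of all genes. They were Ccl9 (log2 change 0.27, adjusted p = 6.63e-07), Ccl4 (0.31, adjusted p = 0.0402) and Mif (0.23, adjusted p = 0.0411). Ccl9 kept its call without any single library. Ccl4, whose groups overlap, was called in only 2 of 8 fits that each left out 1 library. It was lost without normal-glucose library 1, 3 or 5 or high-glucose library 1, 4 or 6, with log2 differences of 0.20 to 0.33 and adjusted p of 0.0553 to 0.257. Mif was called in 4 of 8, and was lost without normal-glucose library 3 (0.14, adjusted p = 0.230) or high-glucose library 1, 4 or 6 (0.21 to 0.25, adjusted p of 0.0585 to 0.127). With BMDM-HG-exo against PBS, Ccl3, a ligand of CCR1, rose by 0.32 (adjusted p = 0.00634) and Ccl9 fell by 0.18 (adjusted p = 0.000382). With BMDM-NG-exo, Ccl3 differed by 0.24 (adjusted p = 0.0839) and Ccl4 by 0.30 (adjusted p = 0.279). Cx3cl1 did not pass in these 3 comparisons, with differences of 0.05, -0.60 and -0.16. The medians of the listed ligands were 0.23, 0.04 and 0.07 in the order high glucose, BMDM-HG-exo and BMDM-NG-exo, where the median of all genes was within 0.01 of 0.

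Of 20 receptors for other chemoattractants 13 were listed, and the calls went both ways in high glucose. In high glucose 2 of the 13 were higher, beside 7.74% of all genes, Cd74, a receptor component for MIF that also serves antigen presentation (0.48, adjusted p = 5.48e-09), and C5ar1, the receptor for complement fragment C5a (0.23, adjusted p = 8.41e-06). In the same comparison 2 were lower, beside 5.53% of all genes, Ptafr, the receptor for platelet-activating factor (-0.25, adjusted p = 9.25e-05), and P2ry12, an ADP receptor (-1.11, adjusted p = 0.000242). With BMDM-HG-exo 6 of 13 were lower than in PBS, beside 3.08% of all genes, and with BMDM-NG-exo 2, beside 2.11%. Cd74 had the smallest p in both, at -0.77 (adjusted p = 9.48e-12) and -0.58 (adjusted p = 1.34e-08). C5ar1 was lower with BMDM-HG-exo (-0.17, adjusted p = 0.00331).

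Downstream of the receptors, 51 of 53 signalling genes (G protein subunits, regulators, kinases and arrestins) were listed. In high glucose 18 of the 51 were called higher, beside 7.74% of all genes, and 2 lower, beside 5.53%, with a median log2 change of 0.08. Rac2, a small GTPase of cell movement (0.35, adjusted p = 8.27e-08), and Prex1, an activator of Rac proteins (0.19, adjusted p = 0.000113), rose, whereas Rgs1, which shuts off G protein signalling, fell by 0.58 (adjusted p = 2.39e-07) and Gng2, a G protein subunit, by 0.25 (adjusted p = 5.87e-05). With BMDM-HG-exo 6 were called against PBS, all lower, beside 3.08% of all genes, among them Arrb2, which takes receptors off the surface (-0.20), and the kinase Fgr (-0.46). With BMDM-NG-exo 1 was higher, Gng2 (0.18), beside 128 of all 14413 genes, and 2 were lower, beside 2.11%, among them Arrb2 (-0.21). Gng2 lost its call without PBS library 2 (0.16, adjusted p = 0.0789), BMDM-NG-exo library 2 (0.18, adjusted p = 0.0511) or BMDM-NG-exo library 3 (0.15, adjusted p = 0.126).

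Since CCR2 and CX3CR1 tell inflammatory from patrolling monocytes, genes of those subsets were read beside them. Of 22 on the list 19 were listed. In high glucose 7 of the 19 were higher, beside 7.74% of all genes, including the transcription factors Cebpb (0.38, adjusted p = 1.76e-07) and Pou2f2 (0.35, adjusted p = 1.80e-06) and Spn, which encodes CD43 (0.39, adjusted p = 1.50e-06), and 1 was lower, beside 5.53%, Nr4a1, a transcription factor that patrolling monocytes need (-0.60, adjusted p = 0.00439). The 7 also held Vcan, which encodes the matrix proteoglycan versican (0.65, adjusted p = 1.24e-05), and F13a1, coagulation factor XIII A (0.38, adjusted p = 2.18e-05), both known from inflammatory monocytes. With BMDM-HG-exo 4 were lower than in PBS, beside 3.08% of all genes, among them Itgal, an integrin chain (-0.39, adjusted p = 9.08e-07), Pou2f2 (-0.43, adjusted p = 1.03e-06) and F13a1 (-0.37, adjusted p = 2.06e-05). With BMDM-NG-exo 3 were lower, beside 2.11%, Pou2f2 (-0.36), Itgal (-0.26) and Spn (-0.27). The call of Spn was lost without PBS library 1 (-0.24, adjusted p = 0.0599) and without BMDM-NG-exo library 3 (-0.23, adjusted p = 0.0657).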

How the data were processed

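Total RNA of 20 BMDM cultures was sequenced. Per the labels and the study's methods, the authors trimmed reads with cutadapt, mapped them with STAR to GRCm38, counted them per gene with featureCounts using strand, and scaled each library by the median-ratio method of DESeq2. The deposited values are therefore normalized counts (a signal, not raw counts). The annotation used for counting was not given in the sources used here. Whole reads were recovered from the step between values (100% whole within 0.001), and size factors recomputed from them equalled the recovered ones. Of 14456 gene IDs, 14421 matched GENCODE M21. Columns of no sample numbered 0.

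log2(normalized count + 1) was fitted for genes averaging 10 or more with limma 3.58.1 (R 4.3.3, trended variance, two-sided, Benjamini-Hochberg over all genes), separately for the 8 glucose and 12 exosome libraries and jointly for the difference of effects. Intervals are moderated 95% intervals. Alternatives were edgeR 4.0.16 and DESeq2 1.42.0 on recovered reads, other pseudocounts, filters and scalings, a replicate block and leaving out each library. The fits were also run on simulated counts drawn without a date effect. The recovery required there was lowered after the outcome was seen, so that run is not used as support. The dates in the titles pair the exosome libraries. Their deviations from group means correlated by 0.012 on average over 12 same-date pairs (-0.0178 to 0.0556), and the block was kept as an alternative. This r takes all genes averaging 10 or more together, so it does not show that the pairing is without effect for single genes. With the block, the genes called between the exosome groups went from 2 to 22. No pair of libraries of a group agreed within sampling noise (chi-square per degree of freedom of 5.20 or more in 30 pairs).

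The members and gene lists were chosen with earlier results of these data known, so no list was given a set test. From each list the 3 called genes with the smallest p per direction and comparison were named, all listed genes within 100 kb of a member were examined, and the 3 protein-coding genes (mean of 50 or more) with the highest r were given per member. Some genes that this rule names are not reported here. Ligand levels, macrophage markers, Ccr3, Cxcr3, Wdr48, Csrnp1, Gorasp1 and, in high glucose, Vcan and F13a1 were named after their values were seen. The same-date differences and the ratios to the marker sum were also added after the data were seen.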

Additional observations from a re-analysis of the deposited data

Results flagged for a closer look

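In high glucose, 1 Ccrl2 library stood apart from its group, at 293.8 normalized counts against 210 to 222 in the other 3. It was the 1 such case in 25 groups of 4 libraries, and chance gives about 1 in 20.

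The glucose effect on Cx3cr1 and the effect of the donor cells' glucose through exosomes differed by 0.6803 on the log2 scale, and those on Ccr2 by 0.3114, each by a limma test of the difference over 20 libraries (adjusted p = 7.99e-08 and 0.00869). The high-glucose libraries of both genes lay above all normal-glucose libraries, while the BMDM-HG-exo and BMDM-NG-exo libraries overlapped.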

How the results depend on the processing

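Cx3cr1 was called in high glucose, in both exosome comparisons against PBS and in the difference of effects under every alternative run except a required absolute log2 change of 1 (tried for high glucose, 0 members called). Without a trend of the variance only 1 member was called in high glucose, with BMDM-NG-exo against PBS and in the difference, since Ccr2 was lost (adjusted p = 0.0567, 0.144 and 0.0830), and the replicate block also left 1 in the difference. The block changed no other member's call. Leaving out each library in turn gave 0 to 1 members called for BMDM-HG-exo against combined controls. The small Ccr1 difference of BMDM-NG-exo against PBS turned negative with edgeR (-0.004477) and DESeq2 (-0.003091) and ranged from -0.176 to 0.20 without single libraries (-0.03 without BMDM-NG-exo replicate 4). Uncalled differences between the exosome groups changed sign without single libraries for Cx3cr1 (-0.0014 to 0.10, negative without BMDM-HG-exo replicate 4) and Ccrl2 (-0.078 to 0.091, positive at 0.091, 0.016 and 0.012 without BMDM-NG-exo replicate 3, BMDM-HG-exo replicate 1 and BMDM-HG-exo replicate 4), and the Ccrl2 difference of effects ranged from -0.19 to 0.0063. The group levels stayed within 1 SD in all 150 alternative values.

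Counts of genes called moved by over 1.5 times as follows. In high glucose the 1914 genes became 654 with no trend, 788 with the replicate block (library numbers, of which only 1 and 6 occur in both groups) and 81 with an absolute log2 change of at least 1. For combined controls the 29 became 47 with a pseudocount of 5, 19 with quantile normalization, 1 with no trend, 127 with DESeq2 and 144 with all 20 libraries in the fit. Between the exosome groups the 2 became 5 with a pseudocount of 5, a filter at 50 or TMM factors, 1 with no trend or edgeR, 22 with DESeq2 or the replicate block, and 0 with all 20 libraries. With no trend BMDM-HG-exo against PBS fell from 698 to 295 and BMDM-NG-exo against PBS from 432 to 95. The 685 of the difference became 324 with no trend and 296 with the block. Without single libraries the counts ran from 1370 to 2027, 1 to 204, 1 to 7, 550 to 759, 292 to 453 and 487 to 755, in the order high glucose, combined controls, between exosome groups, BMDM-HG-exo and BMDM-NG-exo against PBS, and the difference. The causes were not tested. Depth limits Ccr1 most, with 30 to 113 reads per library.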
